A study of Bos grunniens with 6 samples.

Results

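The genes described are 4 chains of type IV collagen, COL4A1, COL4A2, COL4A3 and COL4A4, and nidogen 1 (NID1, called NID in the deposited table), 5 of 15646 genes in that table. They were taken by symbol, 1 row each, without use of measured values, and the row called NID was read as NID1 because the table annotates it with laminin binding and the basement membrane. RNA was measured in cultured skin cells of the yak (Bos grunniens), in 3 DPC cultures (dermal papilla cells) and 3 HMC cultures (hair matrix cells), all labelled wild type. The dermal papilla is a mesenchymal cluster at the follicle's base, and hair matrix cells are the epithelial cells that surround the papilla and divide to form the hair. Both grew in a shared medium with 10% serum, IGF1 (10 ng/mL) and EGF (20 ng/mL). The titles call the cultures biological replicates but do not name the animals, so p-values measure the spread between these cultures.

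Type IV collagen is the network-forming collagen of basement membranes, the thin sheets on which epithelia rest and which surround the dermal papilla in the follicle. Its chains assemble as heterotrimers of fixed composition. COL4A1 and COL4A2 make the form found in nearly every basement membrane, whereas COL4A3 and COL4A4 join COL4A5 in a form best known from the kidney glomerulus, and COL4A5 joins COL4A6 in another form found under epithelia. Nidogen 1 is a secreted glycoprotein that binds both laminin and type IV collagen and so links their networks. In mammals the chain genes lie in pairs, head to head. In the RefSeq annotation of the yak assembly Bosgru_T2T1.0, COL4A1 and COL4A2 were neighbours that overlapped, as were COL4A3 and COL4A4, while COL4A5 and COL4A6 were neighbours without overlap. The use of strand in the authors' read counting, not given in the sources used here, bears on reads from the overlapping ends of a pair, which may be assigned to either gene.

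The values are FPKM, fragments scaled to the length of the gene and to the mapped fragments of the library, as deposited by the authors. Levels of different genes can be set side by side. The FPKM of each gene stood in whole steps, and the whole reads recovered from them came to between 13.1 and 13.4 M in DPC and between 13.7 and 14.0 M in HMC (M, mega). They are known up to a common factor per gene and are lower limits. General markers of mesenchyme and epithelium were read, and no marker particular to the dermal papilla or the hair matrix was listed. Of 10 mesenchyme markers all 10 were higher in DPC, with a summed level of 17162 to 17791 FPKM there and 534 to 647 FPKM in HMC. Of 10 epithelium markers 9 were higher in HMC, with a sum of 10355 to 10795 FPKM against 71.4 to 93.6 FPKM, and the exception was KRT14. Endothelial cells also make type IV collagen, and the 8 endothelium markers found summed to 0.504 to 0.616 FPKM in DPC and 1.29 to 1.40 FPKM in HMC, of which VWF held 1.08 FPKM on average in HMC. PECAM1 and CDH5, which define that cell type, averaged 0.0347 FPKM or less in both, and CLDN5 was at 0 in every DPC library. The 8 pericyte and smooth muscle markers summed to 9189 to 9534 FPKM in DPC and 164 to 196 FPKM in HMC, most of it the actin ACTA2 (9321 and 159 FPKM). Of the 3 that were tested, ACTA2 and CSPG4 (5.20 and 1.35 FPKM) were higher in DPC and NOTCH3 (4.54 and 15.3 FPKM) was higher in HMC, while DES and MYH11 averaged 0.146 FPKM or less in both. Of 6 immune, 6 melanocyte and 6 Schwann cell markers, 4, 3 and 3 were found. Their sums lay between 3.59 and 4.26, 5.73 and 5.95, and 5.92 and 8.98 FPKM in DPC, and between 14.3 and 20.0, 4.57 and 6.11, and 39.7 and 47.0 FPKM in HMC. In the last of these, ERBB3, which epithelia also express, held 38.5 FPKM on average, and SOX10 was at 0 in every DPC library and averaged 1.42 FPKM in HMC. The other Schwann cell marker found, S100B, was higher in DPC, with a mean of 7.66 against 4.28 FPKM. Among the immune markers CD14 averaged 2.47 (DPC) and 10.1 (HMC) FPKM, and AIF1 averaged 0.0511 (DPC) and 6.48 (HMC) FPKM. CD68 averaged 1.29 (DPC) and 1.14 (HMC) FPKM and did not pass, while CSF1R averaged 0.0122 FPKM or less in both. The part of these cell types in the levels of the members was not tested. In mRNA from whole cultures, fewer cells of a type and less RNA per cell cannot be told apart.

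The 2 gene pairs went opposite ways between the cell types. COL4A1 and COL4A2 were abundant in DPC and lower in HMC by 26.1 and 29.0 times. COL4A3 and COL4A4 were detected in HMC and were at 0 reads in every DPC library. NID1 was higher in DPC, with a larger ratio than COL4A1 or COL4A2. The differences of COL4A1, COL4A2 and NID1 exceeded the spread between cultures. COL4A3 and COL4A4 passed the filter on low values (a mean of 0.5 FPKM) through HMC alone, so their calls were fixed by that filter. Over the table, limma called 75.9% of 11883 tested genes, 29.7% higher in DPC and 46.2% higher in HMC (adjusted p under 0.05).

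**Figure D1:**
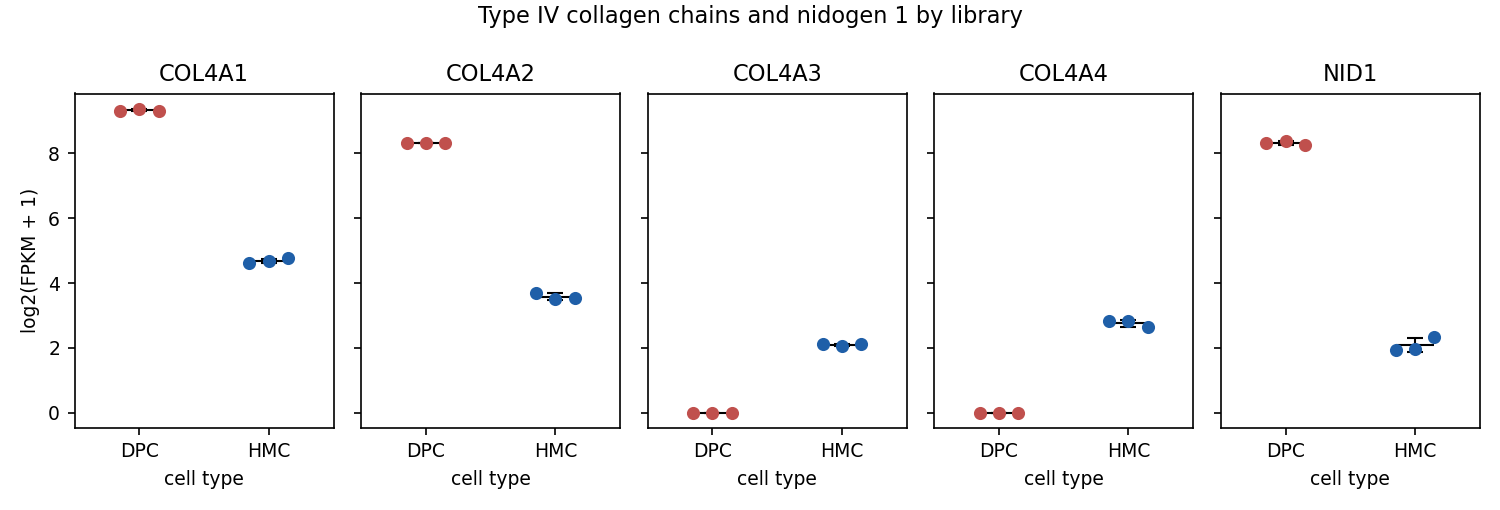
Level of each gene as log2(FPKM + 1) in the 3 DPC (red) and 3 HMC (blue) libraries; points are libraries, the horizontal mark is the group mean and the bar its SD. COL4A1, COL4A2 and NID1 sit higher in DPC, COL4A3 and COL4A4 lie at 0 in DPC and above 0 in HMC, and no gene's groups overlap.

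COL4A1 (ENSBGRG00000004437) encodes the chain present in most copies in the common trimer. It stood at 634, 666 and 636 FPKM in DPC replicates 1 to 3 and at 23.6, 24.6 and 26.1 FPKM in the HMC replicates. The libraries of each cell type lay close together and the groups did not overlap. The group means were 646 ± 17.7 (DPC) and 24.8 ± 1.21 (HMC) FPKM (SD, n = 3 per cell type), a ratio of 26.1 (log2 difference 4.65, SE 0.05, limma adjusted p = 5.69e-11). Behind these values lay 42782 to 44201 recovered reads per DPC library and 1645 to 1853 per HMC library.

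COL4A2 (ENSBGRG00000005083), its partner in the trimer and on the chromosome, stood at 317, 321 and 321 FPKM in DPC and at 12.1, 10.3 and 10.7 FPKM in HMC. DPC libraries were nearly level, while HMC replicate 1 stood above the other HMC cultures, and the groups did not overlap. The means were 319 ± 2.10 (DPC) and 11.0 ± 0.935 (HMC) FPKM (SD, n = 3 per cell type), a ratio of 29.0 (log2 difference 4.74, SE 0.06, limma adjusted p = 1.53e-10). Its log2 difference exceeded that of COL4A1 by 0.09, less than the width of either 95% interval (4.54 to 4.76 for COL4A1 and 4.60 to 4.88 for COL4A2).

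COL4A3 (ENSBGRG00000011854) encodes a chain of the specialised trimer. It was at 0 FPKM in all 3 DPC libraries and at 3.35, 3.16 and 3.32 FPKM in HMC, from 229, 219 and 232 recovered reads. With a floor of 3 reads per library, the DPC level could have been up to 0.0460 FPKM, so the HMC mean of 3.28 ± 0.0987 FPKM (SD, n = 3) was at least 71.3-fold higher. COL4A4 (ENSBGRG00000012460), its neighbour and partner, was likewise at 0 FPKM in all 3 DPC libraries and stood at 6.10, 6.05 and 5.20 FPKM in HMC, from 428, 430 and 373 reads. The same floor gave up to 0.0448 FPKM in DPC, so the HMC mean of 5.78 ± 0.507 FPKM (SD, n = 3) was at least 129-fold higher. Both genes passed the filter on low values (a mean of 0.5 FPKM over the 6 libraries) through their HMC values alone, so a gene of that kind had to differ. The fitted log2 differences, -2.10 for COL4A3 (SE 0.08, limma adjusted p = 5.89e-08) and -2.76 for COL4A4 (SE 0.09, limma adjusted p = 2.04e-08), depend on the pseudocount of 1 and give no bound.

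NID1 (ENSBGRG00000019277), the laminin and collagen linker, stood at 316, 336 and 308 FPKM in DPC and at 2.85, 2.93 and 4.02 FPKM in HMC. The groups did not overlap, and HMC replicate 3 stood above the other HMC cultures. The means were 320.1 ± 14.5 (DPC) and 3.27 ± 0.653 (HMC) FPKM (SD, n = 3 per cell type), a ratio of 98.0 (log2 difference 6.24, SE 0.10, limma adjusted p = 4.59e-10). Without HMC replicate 3 the log2 difference was 6.37. The HMC reads behind it were few, 184, 191 and 265, against 19213 to 20699 in DPC. The range of NID1 over the DPC libraries enclosed that of COL4A2, and its range over the HMC libraries enclosed that of COL4A3.

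In HMC the levels that remained of the DPC-high genes were 3.84% of the DPC mean for COL4A1, 3.45% for COL4A2 and 1.02% for NID1. Over the 10 mesenchyme markers the same percentage ran from 0.764 (TWIST1) to 6.97 (VIM), with a median of 1.85. HMC replicate 3 had the highest level of 8 of those 10 markers among the HMC cultures, with a summed level of 647 FPKM against 549 and 534 FPKM in replicates 1 and 2. COL4A1 and NID1 were also highest in that culture, while COL4A2 was highest in HMC replicate 1. The part of mesenchymal cells or transcripts in the HMC levels of these genes was not tested.

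The ratio of FPKM within a pair was taken in each library. COL4A1 to COL4A2 stood at 2.00, 2.08 and 1.99 in the DPC libraries and at 1.96, 2.39 and 2.44 in the HMC libraries. The HMC range enclosed the DPC range, with means of 2.02 ± 0.0490 in DPC and 2.26 ± 0.265 in HMC (SD, n = 3 per cell type). COL4A3 to COL4A4 stood at 0.549, 0.523 and 0.638 in HMC, a mean of 0.570 ± 0.0606 (SD, n = 3), and has no value in DPC, where both were at 0. So the first gene of the name pair was the more abundant for COL4A1 and the less abundant for COL4A3, in every library where a ratio exists. These ratios are descriptions with no test.

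**Figure D2:**
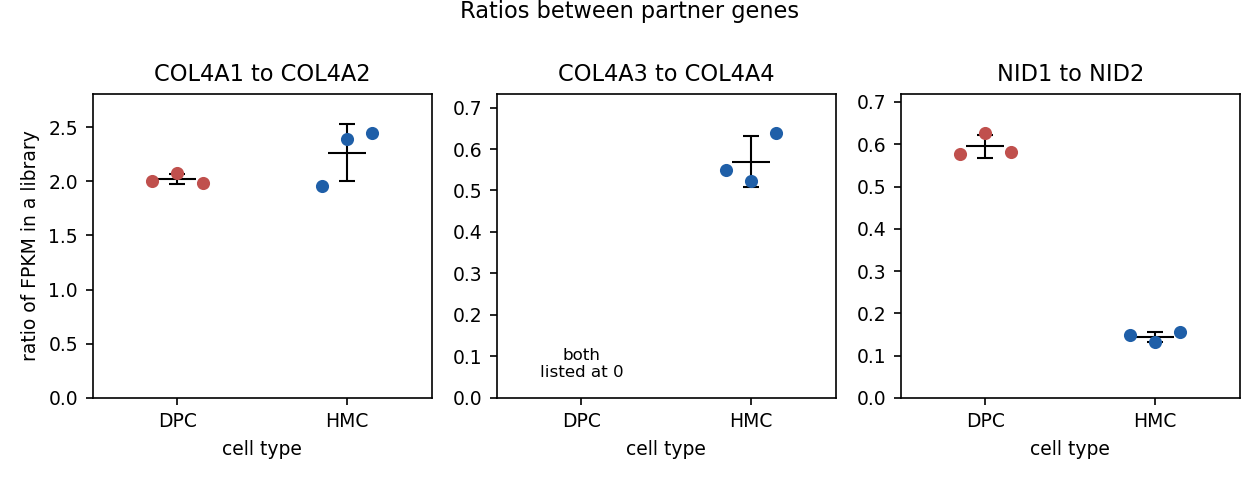
Ratio of FPKM between partner genes in each library of DPC (red) and HMC (blue), with the group mean and SD; every vertical axis starts at 0. COL4A1 to COL4A2 lies between 1.96 and 2.44 in all 6 libraries, COL4A3 to COL4A4 has values in HMC only, and NID1 to NID2 is lower in HMC.

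The third pair did not follow either of the first 2. COL4A5, the chain that can join COL4A3 and COL4A4, stood at 9.20, 10.1 and 9.39 FPKM in DPC and at 10.2, 10.3 and 9.66 FPKM in HMC. Its groups overlapped and it did not pass the test (log2 difference -0.06, SE 0.07, limma adjusted p = 0.413). The sign turned under other scalings without passing, to 0.08 with median-of-ratios size factors and 0.10 with quantile normalization. COL4A6 was near the limit of detection, at 0.125, 0.163 and 0.368 FPKM in DPC and 0.278, 0.308 and 0.446 FPKM in HMC, from 11 to 41 reads per library, and was not tested.

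The summed level of the 6 chains was 975 ± 19.4 (DPC) and 55.2 ± 0.497 (HMC) FPKM (SD, n = 3 per cell type). Of that sum, COL4A1 and COL4A2 together held 99.03%, 98.97% and 98.99% in the DPC libraries and 64.8% ± 1.36 in HMC (SD, n = 3). COL4A5 held 0.982% ± 0.0314 in DPC and 18.2% ± 0.660 in HMC. COL4A4 held 10.5% ± 0.941 and COL4A3 5.93% ± 0.127 of the HMC sum (SD, n = 3 per cell type). In DPC the order of the levels was COL4A1, COL4A2, COL4A5 and COL4A6, with COL4A3 and COL4A4 at 0. In HMC the order was COL4A1, COL4A2, COL4A5, COL4A4, COL4A3 and COL4A6. No neighbours in the order that were above 0 overlapped in either cell type. The closest were COL4A2 and COL4A5 in HMC, at 11.0 ± 0.935 and 10.03 ± 0.323 FPKM (SD, n = 3), where the lowest COL4A2 library stood just above the highest COL4A5 library. Since COL4A5 differed little between the cell types in FPKM, its larger share in HMC came with the smaller sum.

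**Figure D3:**
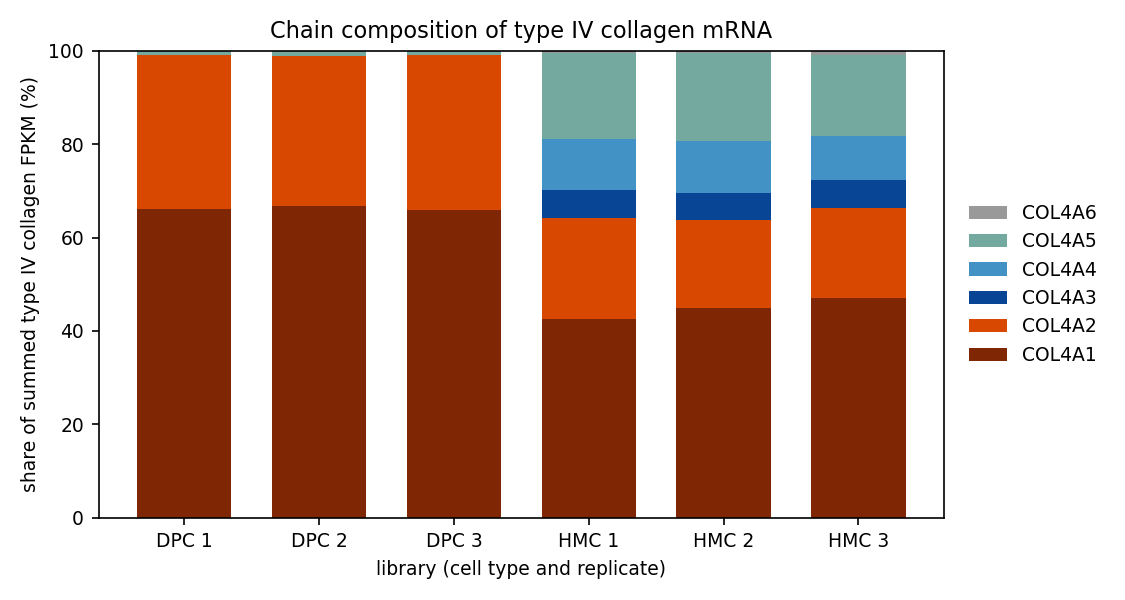
Share of each type IV collagen chain in the summed FPKM of the 6 chains, as a stacked bar per library (percent). COL4A1 and COL4A2 fill at least 98.97% of each DPC bar, and the HMC bars hold COL4A3, COL4A4 and COL4A5 as well.

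Genes next to the members on the chromosome were read as well. Beside COL4A1 and COL4A2, the insulin receptor substrate IRS2 stood at 12.5 (DPC) and 2.60 (HMC) FPKM (log2 difference 1.90). On the other side, the small GTPase gene RAB20 was higher in HMC (log2 difference -0.50). The nearest named genes on either side of COL4A3 and COL4A4, MFF and RHBDD1, found no match. IRS1, the next beyond RHBDD1, was higher in HMC (10.9 FPKM in DPC and 22.4 FPKM in HMC, log2 difference -0.98), as were 46.2% of all genes tested. Beyond NID1, the lysosomal trafficking gene LYST did not pass, at 4.09 (DPC) and 4.47 (HMC) FPKM (limma adjusted p = 0.279). GPR137B and ERO1B, on the other side of NID1, found no match. These neighbours were read from the RefSeq annotation and chosen after the members' values were seen.

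The genes whose profile over the 6 libraries lay nearest to a member were ranked by the root mean square difference of log2(FPKM + 1), each gene centred on its own mean, among 11707 other tested genes with a symbol. Nearest to COL4A1 were GIG39, HXB (tenascin C, a matrix glycoprotein) and C9orf13, at 0.04, 0.04 and 0.05, and COL4A2 ranked 21 at 0.11. Nearest to COL4A4 were SVCT1, ABHD14B and PP3105, at 0.02, 0.04 and 0.04. COL4A3 ranked 410 there at 0.34. SVCT1 was also at 0 in every DPC library and stood at 5.61 FPKM in HMC. Nearest to NID1 were the fibrillar collagen gene COL1A1, the actin gene Acta3 and COLL6, at 0.06, 0.10 and 0.12. With 2 groups of 3 libraries this measure mostly compares the size of the group difference on the log2(FPKM + 1) scale. The pseudocount of 1 shrinks that difference for low genes, so near genes need not share a ratio of FPKM. Mean FPKM was 20.7 (DPC) against 144 (HMC) for ABHD14B and 4.21 against 32.8 for PP3105. Both ranked above COL4A3, although COL4A3 was at 0 reads in every DPC library, like COL4A4. GIG39, HXB and C9orf13 had DPC to HMC ratios of 136, 24.8 and 37.7, against 26.1 for COL4A1. The HMC reads of GIG39 were 5 to 7.

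The second nidogen, NID2 (Nid2 in the table), which shares the role of NID1, was also higher in DPC. It stood at 547, 537 and 530 FPKM in DPC and at 19.3, 22.3 and 25.9 FPKM in HMC (log2 difference 4.53, SE 0.09, limma adjusted p = 1.42e-09). NID1 to NID2 was 0.595 ± 0.0270 in DPC and 0.145 ± 0.0122 in HMC (SD, n = 3 per cell type), and the ranges did not overlap. The length over which NID2 was counted came to 13.2% of that of COL4A1, against 92.7% for NID1, unless its reads share a common factor. Its row may therefore hold part of the gene, and the level of the ratio of the nidogens is uncertain to that extent in all libraries alike.

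Laminins form the other network of the basement membrane, as trimers of an alpha, a beta and a gamma chain, and their chains were divided between the cell types too. LAMA3 and LAMB3 are chains of the laminin that anchors basal epidermal cells. LAMB3 stood at 1.89, 1.93 and 2.34 FPKM in DPC and at 303, 292 and 265 FPKM in HMC (log2 difference -6.56, SE 0.08, limma adjusted p = 1.13e-10). LAMA3 averaged 2.38 (DPC) and 179 (HMC) FPKM, a log2 difference of -5.74. The epithelial alpha chain LAMA5 was also higher in HMC (log2 difference -3.65), where it averaged 74.9 FPKM. LAMA4, an alpha chain of mesenchymal and vascular laminins, went the other way, at 86.4, 90.3 and 88.6 FPKM in DPC and 3.86, 3.50 and 3.74 FPKM in HMC (log2 difference 4.25). The widely used beta chain LAMB1 (Lamb-1 in the table) was higher in DPC, at 268 FPKM against 64.3 FPKM. The gamma chain LAMC1 (Lamb-2 in the table) did not pass, at 104 (DPC) and 107 (HMC) FPKM (limma adjusted p = 0.498), although it did after quantile normalization, toward DPC (log2 difference 0.25). The row called Lamb2, read as LAMB2, had a log2 difference of 0.95. LAMA1 and LAMA2 were below the filter, with means of 0.467 FPKM or less.

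Of 30 other basement membrane genes listed, 18 were found under their current or an older symbol and 13 were tested, of which 6 were higher in DPC and 6 in HMC, or 46.2% each way, against 29.7% and 46.2% over all genes tested. With 5 rows under rodent-style spellings added, 18 were tested, 9 higher in DPC and 7 in HMC, with a median log2 difference of 0.42 against -0.15 over all genes tested. Besides NID2, LAMA4 and LAMB1, the DPC side held the calcium-binding matrix protein SPARC, the most abundant of the list, at 1967, 2107 and 1994 FPKM in DPC and 94.5, 91.6 and 94.4 FPKM in HMC (log2 difference 4.42). It also held peroxidasin (PXDN, KIAA0230 in the table), the enzyme that forms the sulfilimine cross-links of type IV collagen. PXDN stood at 205, 202 and 209 FPKM in DPC and at 3.63, 3.97 and 4.33 FPKM in HMC (log2 difference 5.38, SE 0.06, limma adjusted p = 9.92e-11). The matrix protein hemicentin 1 (HMCN1) had a log2 difference of 5.21. On the HMC side stood agrin (AGRN), a heparan sulfate proteoglycan, with a log2 difference of -5.31, and the hemidesmosome collagen COL17A1 with -3.27.

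The machinery that folds, modifies and exports collagens stood mostly on the DPC side. Of 20 genes listed, 15 were found and tested, 13 (86.7%) higher in DPC and none in HMC, against 29.7% and 46.2% over all genes tested. Their median log2 difference was 1.40, against -0.15 over all genes tested. The collagen chaperone SERPINH1 stood at 1993 ± 18.5 (DPC) and 141 ± 5.99 (HMC) FPKM (SD, n = 3 per cell type; log2 difference 3.81). The lysyl hydroxylase PLOD2 and the prolyl hydroxylase subunits P4HA3 and P4HA1 had log2 differences of 3.59, 3.16 and 2.78. P4HB, the shared subunit of prolyl hydroxylase and a general disulfide isomerase, did not pass, at 847 ± 11.8 (DPC) and 853 ± 7.16 (HMC) FPKM (limma adjusted p = 0.747). It passed toward DPC after rescaling, with log2 differences of 0.15 by median of ratios and 0.21 by quantiles. P3H2 (P3h2 in the table), a prolyl 3-hydroxylase, was the one gene added by a rodent-style spelling, and it was higher in HMC (log2 difference -1.54). Many of these enzymes also serve fibrillar collagens, whose genes COL1A1 and COL1A2 stood at 4672 and 5051 FPKM in DPC.

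Receptors stood mostly on the HMC side. Of 16 genes listed as receptors of type IV collagen and laminin, not all specific to these, 13 were found and tested. Of the 13, 2 (15.4%) were higher in DPC and 11 (84.6%) in HMC, against 29.7% and 46.2% over all genes tested. Their median log2 difference was -1.87, against -0.15 over all genes tested. The collagen-binding integrins went opposite ways. ITGA1, which prefers type IV collagen, stood at 56.8, 56.7 and 50.1 FPKM in DPC and at 3.09, 2.70 and 3.10 FPKM in HMC (log2 difference 3.81, SE 0.08, limma adjusted p = 1.35e-09). ITGA2, its relative in epithelia, stood at 1.04, 1.02 and 1.45 FPKM in DPC and at 91.6, 98.4 and 88.8 FPKM in HMC (log2 difference -5.44, SE 0.09, limma adjusted p = 4.91e-10). The receptor kinase DDR2, which binds fibrillar collagens, was the other receptor higher in DPC (log2 difference 4.02). The laminin-binding integrin ITGA6 averaged 193 FPKM in HMC against 1.45 FPKM (log2 difference -6.31). ITGA7, which also binds laminin, had a log2 difference of -5.14, and dystroglycan (DAG1) had the highest level of the list, 537 ± 71.4 FPKM in HMC against 146 ± 23.7 FPKM (SD, n = 3 per cell type). Its counted length was 3.12% of that of COL4A1, so its row may hold part of the gene and its rank by level is uncertain. ITGB4 (Itgb4 in the table), the partner of ITGA6, was added by its spelling and averaged 177 FPKM in HMC against 2.44 FPKM (log2 difference -5.70).

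Of 17 proteases and inhibitors listed for type IV collagen degradation, not all of which act on it directly, 14 were tested. Of these, 6 (42.9%) were higher in DPC and 8 (57.1%) in HMC, against 29.7% and 46.2% over all genes tested, where most genes were called. Their median log2 difference was -1.11, against -0.15 over all genes tested. The gelatinases, metalloproteases that degrade type IV collagen, went opposite ways. MMP2 stood at 2550, 2445 and 2634 FPKM in DPC and at 47.7, 46.8 and 57.0 FPKM in HMC (log2 difference 5.63, SE 0.07, limma adjusted p = 1.61e-10). MMP9 stood at 3.55, 2.36 and 3.39 FPKM in DPC and at 436, 387 and 289 FPKM in HMC (log2 difference -6.49, SE 0.17, limma adjusted p = 5.37e-09). MMP7 was higher in HMC (log2 difference -5.95), and the cysteine protease CTSK was higher in DPC, with 5.63. Of the inhibitors, TIMP1 and TIMP2 were higher in DPC (log2 differences 3.18 and 3.01) and TIMP3 was higher in HMC (-1.62).

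**Figure D4:**
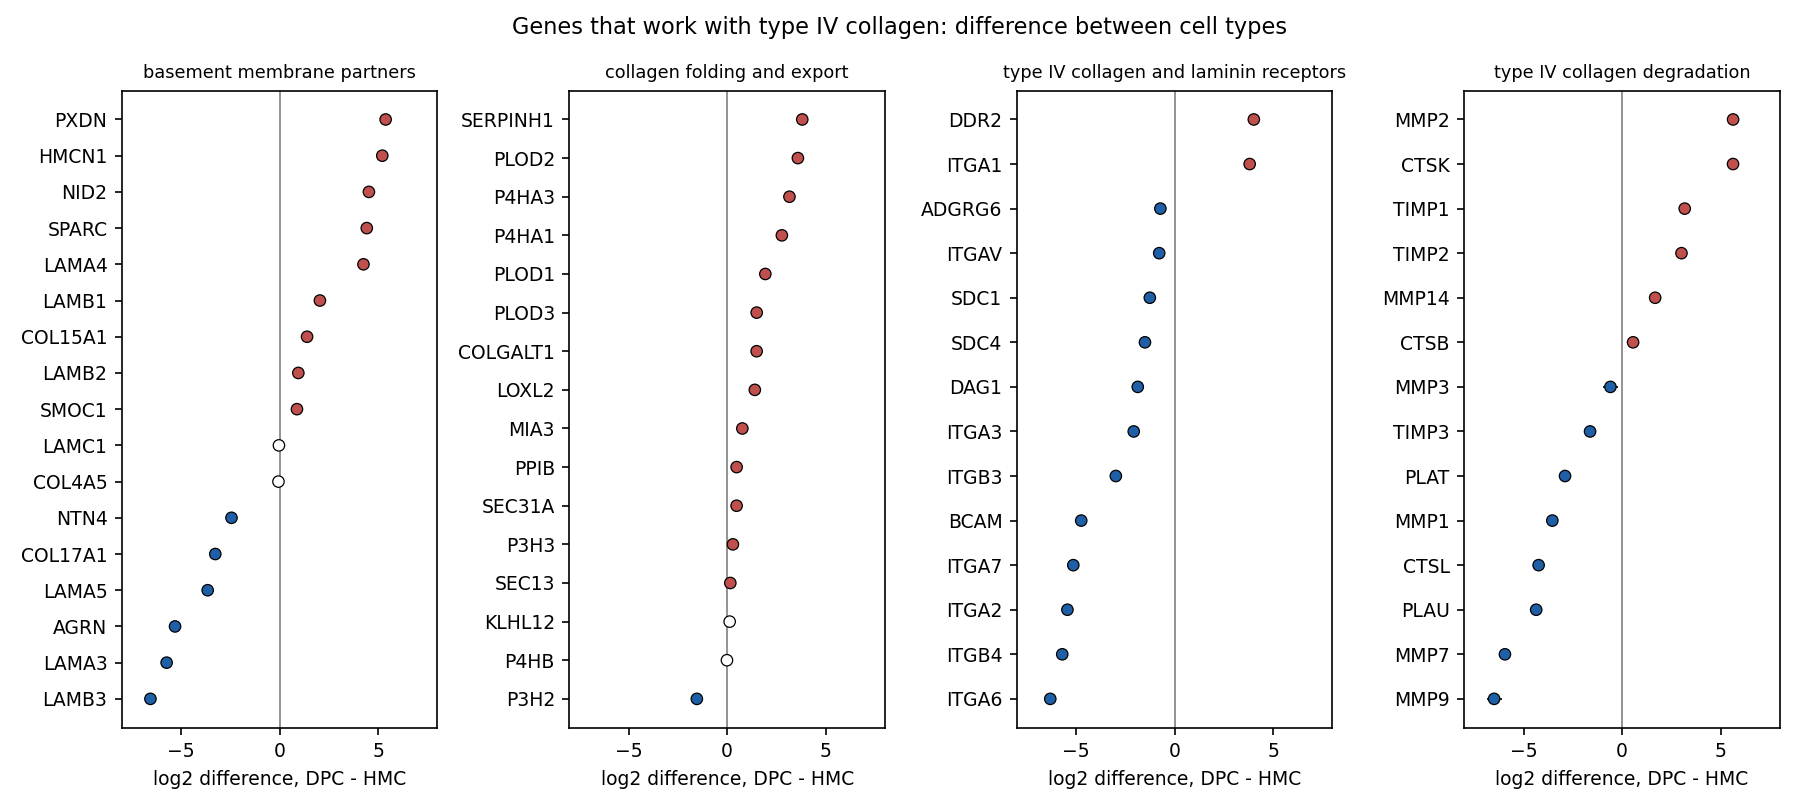
Log2 difference between DPC and HMC, on the log2(FPKM + 1) scale, of tested genes of 4 lists, rows matched by rodent-style spelling included; horizontal bars are 95% intervals, mostly hidden by the points. Red points were higher in DPC, blue points were higher in HMC and open points did not pass; the folding list lies mostly to the right and the receptor list mostly to the left.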

How the data were processed

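Per the labels' protocols, Trizol RNA from 6 cultures was made into TruSeq stranded mRNA libraries. Trimmomatic, HISAT2 2.2.1.0 and DESeq 1.20.0 were used, in roles that are unstated, per the submitters' processing notes. With the counter, build and annotation not given in the sources used here, positions are left out. The authors deposited 1 table of FPKM, with a column per sample. Every value was a whole number of reads times a gene-specific step (100% of values, relative tolerance 1e-09), which gave the recovered reads.

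Groups were compared with limma 3.58.1 (R 4.3.3) as DPC minus HMC on the log2(FPKM + 1) scale (prior variance with a trend, two-sided), keeping genes whose mean reached 0.5 FPKM, with Benjamini-Hochberg adjustment over all 11883 genes tested. Low genes change more than such differences show. The fit was tested on simulated data. Means and ratios used Python 3.11.15 with pandas 2.3.3, and figures matplotlib 3.10.9.

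The genes and lists were chosen with earlier results of these data known. Named are the 5 genes, from each list the 3 tested genes of largest difference and the most abundant, and type IV collagen, laminin and nidogen chains with a few fixed partners. Other named genes were chosen after their values were seen. Symbols were matched as written, then through older symbols read against the table's annotation. Rows spelled in rodent style were added after the table was seen. Rows called CAK and CASP carry no annotation and an ambiguous symbol and were left out. HSPG2, ITGB1, DDR1 and COL18A1 found no match and are not analysed here. In the basement membrane list, 1 tested gene is counted but not reported here by name or drawn.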

Additional observations from a re-analysis of the deposited data

How the results depend on the processing

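The differences of COL4A1, COL4A2 and NID1 kept their direction and stayed past the threshold under all 14 alternatives, with log2 differences of 4.62 to 4.85, 4.70 to 4.95 and 6.18 to 6.62. COL4A3 and COL4A4 kept theirs under the 13 that could be run, since a filter at 5 FPKM removed both, and their fitted values ran from -8.76 to -2.005 and from -9.61 to -2.67 with the pseudocount and with voom on recovered reads, which follows from the 0 reads in DPC. The number of genes called ran from 6808 to 9851, against 9020, and the share of calls higher in DPC was 39.1% with FPKM unchanged, 48.8% with median-of-ratios size factors and 53.8% with quantile normalization, with a median log2 difference of all genes of -0.15, -0.02 and 0.05. With the replicate number as a block, 8924 genes were called and no call of the 5 genes changed, those of COL4A3 and COL4A4 being fixed. Deviations of same-numbered cultures had correlations of 0.0230, 0.0337 and 0.00635. DPC replicates 1 and 2 correlated best with the HMC culture of the same number. DPC replicate 3 correlated best with HMC replicate 2, at 0.00681. Whether same-numbered cultures share an animal or a batch was not tested. The ratio of COL4A3 to COL4A4 in HMC became 0.633 with 1 FPKM added to both. In the folding and export list, 1 gene higher in HMC came in with the added spellings, against none before. Of 62 partner genes, 4 changed a call: P4HB to 0.146 and 0.209 and LAMC1 to 0.253 under rescaling (signs turned, cause not tested), KLHL12, which passed after rescaling, and SEC13, which missed the threshold without DPC replicate 1, DPC replicate 3 or HMC replicate 2. Depth limits COL4A6, read from 11 to 41 reads per library, and COL4A3 and COL4A4 in DPC, where 0 reads give bounds only.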

Other observations

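The table's annotation term for the basement membrane held 26 genes that are neither members nor in any of the 4 lists of partner genes. Of these, 19 were tested by limma, 9 higher in DPC and 9 in HMC, or 47.4% each way, against 29.7% and 46.2% over all genes tested. Their median log2 difference was 0.07, against -0.15 over all genes tested. This count was made after the data were seen. On the DPC side it included thrombospondin 2 (TSP-2), at 370.2 FPKM against 7.15 FPKM, the fibrillar collagen gene COL5A1, at 749.8 FPKM against 19.1 FPKM, and fibrillin 1 (FBN1), at 368 FPKM against 21.7 FPKM. On the HMC side it included ladinin (Lad1), an anchoring filament protein, at 170 FPKM against 0.646 FPKM, the matrix protein VWA1, at 323 FPKM against 37.7 FPKM, and the growth factor Tgfb2, at 27.3 FPKM against 10.4 FPKM.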
